A study of Mus musculus with 28 samples.

Results

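Phase II conjugation enzymes attach a polar group to drugs, plant polyphenols, hormones and bilirubin, which makes these compounds easier to excrete. The genes described here were all gene names on the array that belong to the glucuronosyltransferase families Ugt1a, Ugt2a and Ugt2b, the sulfotransferase families Sult1 to Sult5 and the soluble glutathione transferase families Gsta, Gstk, Gstm, Gstp, Gstt and Gstz. The choice was made with earlier results of these data known, and the match itself was by name. It took in 40 of the 27827 gene names of the array. Of these, 12 were glucuronosyltransferase genes, 10 were sulfotransferase genes and 18 were glutathione transferase genes. Filtering removed 1 gene, the sulfotransferase Sult3a1, and left 39 genes among the 21899 that were tested, and 35 of the 40 were well above background on every array.

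Glucuronosyltransferases sit in the endoplasmic reticulum and use UDP-glucuronic acid as the donor, whereas the sulfotransferases and most of the glutathione transferases are cytosolic and use PAPS and glutathione. Many of these genes are highly expressed in liver, and quercetin and resveratrol are themselves glucuronidated and sulfated there. Several of the genes are textbook targets of the receptors CAR, PXR and AhR and of the oxidative stress regulator Nrf2.

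The data came from whole livers of male C57/6J mice, which entered the experiment at 7 weeks of age, were fed for 26 weeks and were 33 weeks old at sampling. No genetic change is given for any group. The SD group (5 livers) ate a standard diet and the HFD group (6 livers) a high fat diet. The other groups ate the same high fat diet with 0.4% quercetin (HQ, 5 livers), with 0.4% resveratrol (HR, 6 livers) or with 0.2% of each (HQR, 6 livers), so that every group but SD carried the high fat diet. The study planned 30 livers, and 2 RNA samples were left out by the submitters as degraded. Each of the 28 remaining RNAs was hybridised alone to a 1-colour Agilent array. Each level below is a log2 signal from which the array's own 75th percentile was subtracted, each difference is one between group means on that log2 scale, and each gene is represented by its brightest probe. Levels of different genes are not comparable on this scale, because each probe has its own response. A gene was called where limma's p, adjusted by Benjamini-Hochberg over the 21899 genes, was under 0.05.

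The arrays lay on 9 slides, scanned on 4 days. Between 59.3% and 82.1% of probes were well above background, and the 3 arrays of slide 8 (1 HFD, 1 HR and 1 HQR liver) stood above the rest, with at least 79.3% against at most 74.3% elsewhere. The 7 measured hepatocyte markers were present in every liver, with a summed level between 9.78 and 11.39 over all groups. Because whole liver was used, fewer cells of a type and less RNA per cell cannot be told apart. Between HFD and SD, 1 of the 7 bile duct markers (Tff3, difference -1.92), 1 of the 3 adipocyte markers (Cfd, 5.45) and 3 of the 9 female-biased liver genes (Cyp2b9, Cyp2b13 and Hao2, which the array names Hao3, 3.13 to 5.97) were called. The summed level of the bile duct list ran from 4.12 to 5.11 in SD and 4.38 to 5.25 in HFD, that of the adipocyte list, in which the 2 genes other than Cfd had negative differences, from -1.32 to 1.94 and 5.51 to 6.37, and that of the female-biased list from 6.61 to 8.33 and 7.14 to 8.66. Their part in the values below was not tested.

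No conjugation enzyme gene was called in any of the 10 pairwise comparisons of the 5 diets or in the F-test over them. In HFD against SD, limma called 0 of 39 conjugation genes, against 0.114% of all genes. At an unadjusted p under 0.05 there were 5 of 39, against 6.16% of all genes: Ugt2a1, Gsta1 and Gsta2 were higher in HFD, and Ugt1a9 and Gstm2 were lower. The median difference of the 39 genes was 0.03, beside -0.04 for all genes, with 23 genes above 0 and 16 below. The median half-width of the 95% confidence interval, which is not adjusted for the number of genes, was 0.61. It ranged from 0.30 for Ugt1a6b to 1.70 for Ugt2b34. Larger differences also went uncalled after adjustment, such as 1.23 for Ugt2a1 (adjusted p 0.455 by limma), so a count of 0 does not exclude differences above that half-width.

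**Figure D1:**
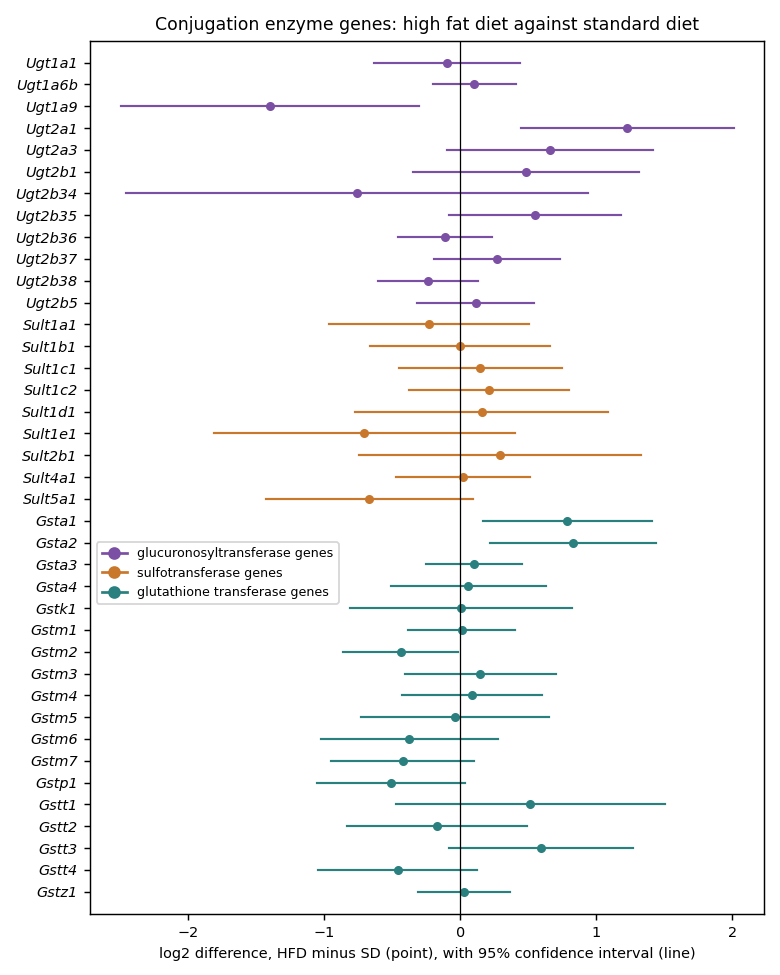
Difference between the high fat diet and standard diet livers for each of the 39 tested genes, in log2 units (point), with its 95% confidence interval (line), coloured by enzyme class. Intervals for Ugt2a1, Gsta1 and Gsta2 lie above 0, those for Ugt1a9 and Gstm2 lie below 0, and the others cross it; none passed the adjusted threshold.

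The largest positive difference in HFD against SD was that of Ugt2a1, a glucuronosyltransferase best known from the olfactory epithelium. Its level was 0.17, -0.40, -0.15, 0.49 and -0.03 in the 5 SD livers. In the HFD livers it ranged from 0.57 to 1.83 with a median of 1.44. Every HFD liver lay above every SD liver, an absence of overlap that 1.34% of all genes showed in this comparison. The difference was 1.23 ± 0.38 (SE), with an adjusted p of 0.455 by limma, and it was positive on each of the 4 slides that held both diets, from 0.17 to 1.89. The supplemented groups had means of 1.00 ± 0.61 (HQ, n = 5), 0.96 ± 1.03 (HR, n = 6) and 1.02 ± 0.50 (HQR, n = 6), each with its standard deviation, and they overlapped with both SD and HFD. Against SD, the 4 high fat groups together differed by 1.04, with an adjusted p of 0.232 by limma, a contrast chosen after the data had been seen. That contrast called 0 of 39 conjugation genes, beside 0.164% of all genes, and 8 of 39 had an unadjusted p under 0.05, beside 7.2%. With slide as a block in the limma model this adjusted p was 0.0227. A second probe for Ugt2a1 gave a difference of 0.94 between HFD and SD, and the dimmest, well above background on 18 arrays, gave 0.16. The 3 probes lie between positions 87890949 and 87893097 of chromosome 5 (mm9), and whether they read other transcripts of that locus was not tested.

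Ugt2a3, the other member of the family on the array, was 3.28 ± 0.65 (SD, n = 5) in SD and 3.94 ± 0.42 (SD, n = 6) in HFD. Its difference of 0.66 had a 95% interval from -0.10 to 1.42. Both Ugt2a genes had positive differences in HFD against SD and negative ones in each supplemented group against HFD, none of which passed the test. Within slides that held both diets, both genes were below 0 on each of 2 slides in HQ against HFD. In HR against HFD Ugt2a1 was below 0 on 1 of 4 slides and Ugt2a3 on 2 of 4, and in HQR against HFD both were below 0 on 2 of 4.

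In the Ugt1a family, whose members share their 3′ exons and differ in the first, Ugt1a1 is the bilirubin glucuronosyltransferase. Ugt1a1 was 1.36 ± 0.42 (SD, n = 5) in SD and 1.26 ± 0.35 (SD, n = 6) in HFD, and its differences lay between -0.10 and 0.07 in HFD against SD and in the supplemented diets against HFD, and between -0.13 and -0.03 in the supplemented diets against SD. The brightest probe named Ugt1a6b lies at chr1:90115472-90115531 on the plus strand of mm9, 3′ of the Ugt1a1 probe at chr1:90108880-90108939, and whether it reads several Ugt1a transcripts was not tested. This probe was 7.36 ± 0.18 in HFD (SD, n = 6), 7.03 ± 0.32 in HQ (SD, n = 5) and 7.05 ± 0.17 in HR (SD, n = 6). The differences from HFD were -0.33 in HQ and -0.32 in HR, with 95% intervals that excluded 0 and adjusted p of 1.00 for each by limma. The second Ugt1a6b probe, at chr1:90003830-90003889, gave -0.02 in HQ and 0.08 in HR.

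Ugt1a9, which conjugates phenols, was the gene with the largest negative difference in HFD against SD, but it was near background. It was well above background in 4 of 5 SD livers, 3 of 6 HR livers and no HFD, HQ or HQR liver. SD levels were -4.59, -4.04, -3.82, -3.68 and -3.22, and HFD levels ran from -6.08 to -4.46 with a median of -5.43. The lowest SD liver lay below the highest HFD liver, so the groups overlapped. The measured difference was -1.40 ± 0.53 (SE), with an adjusted p of 0.632 by limma. With HFD livers set no lower than the lowest signal that counted as above background, the SD mean was 1.56-fold (log2 0.64) above HFD. In the same way it was 1.52-fold (log2 0.60) above HQR. The SD mean here includes the 1 liver that was not well above background. With normexp background correction the differences from SD were -0.56 in HFD and -0.38 in HQR, smaller in size, so these folds are not lower bounds. In HQ the difference of -1.25 turned to 0.19 with normexp, so no such fold is given. HR levels ran from -6.09 to -2.08 with a median of -4.28. HR livers overlapped with every other group, and HR differed from HFD by 0.87 (95% interval -0.17 to 1.91).

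The 7 Ugt2b genes conjugate steroids, bile acids and drugs. Their differences in HFD against SD ranged from -0.76 (Ugt2b34) to 0.55 (Ugt2b35), with 4 above 0 and a median of 0.11. Ugt2b36 (-0.12), Ugt2b37 (0.27), Ugt2b38 (-0.24) and Ugt2b5 (0.11) had 95% intervals whose ends lay within 0.73 of 0, whereas Ugt2b1 (0.48) had one from -0.35 to 1.32. Ugt2b35 was 1.78 ± 0.36 (SD, n = 5) in SD and 2.48 ± 0.72 (SD, n = 6) in HR.

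Ugt2b34 had the widest spread of all 39 genes. SD livers read 5.55, 4.11, 0.58, 1.36 and 3.98, HFD livers ran from 0.82 to 4.33 with a median of 2.22, and HQ livers read 4.45, 4.98, 2.15, 2.40 and 1.29. HQR livers ran from 1.49 to 5.89 with a median of 2.52. High and low livers occurred in each of these diets. The 4 arrays of slide 1, which carried 1 liver each of SD, HFD, HQ and HQR, had a mean of 5.05, against 1.43 on slide 6, and slide took a share of 0.70 of the variance against 0.06 for diet. Ugt2b34 was the largest positive difference in HQ against HFD (0.70, 95% interval -1.0 to 2.40) and in HQR against HFD (0.64, -0.98 to 2.26). With slide as a block the differences were 1.02 and 0.35.

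**Figure D2:**
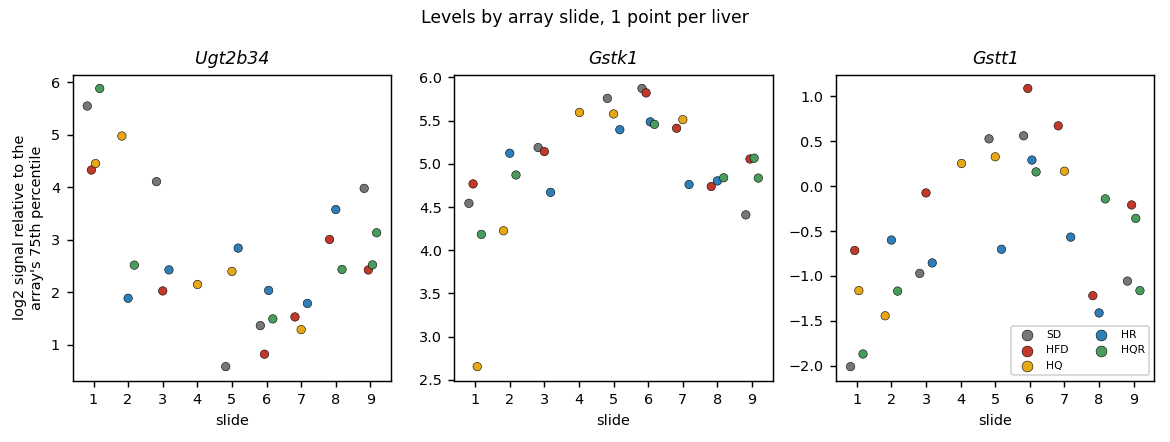
Level of Ugt2b34, Gstk1 and Gstt1 in each liver (points coloured by diet, log2 relative to the array's 75th percentile) by array slide. Ugt2b34 lies at 4.33 to 5.89 on slide 1 whatever the diet, while Gstk1 and Gstt1 have their lowest livers, at 2.65 and -2.01, on the same slide.

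In the alpha class of glutathione transferases, Gsta1 and Gsta2 encode close relatives that detoxify lipid peroxidation products and are classical targets of Nrf2. Their promoters are shown because their levels varied together in these livers. The 250 bases upstream of each start site are given from RefSeq, build GRCm38.p6, in the direction of transcription: Gsta1 at chr9:78230419-78230668 on the plus strand and Gsta2 at chr9:78347146-78347395 on the minus strand. Capitals mark the longest run identical between them, 29 bases, which begins at position -118 of Gsta1 and -121 of Gsta2, counted from the start site.
Gsta1: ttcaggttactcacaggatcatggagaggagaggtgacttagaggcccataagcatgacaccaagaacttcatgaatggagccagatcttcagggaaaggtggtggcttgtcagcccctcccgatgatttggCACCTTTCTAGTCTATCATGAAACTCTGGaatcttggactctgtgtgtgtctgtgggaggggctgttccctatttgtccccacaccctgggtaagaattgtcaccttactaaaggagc
Gsta2: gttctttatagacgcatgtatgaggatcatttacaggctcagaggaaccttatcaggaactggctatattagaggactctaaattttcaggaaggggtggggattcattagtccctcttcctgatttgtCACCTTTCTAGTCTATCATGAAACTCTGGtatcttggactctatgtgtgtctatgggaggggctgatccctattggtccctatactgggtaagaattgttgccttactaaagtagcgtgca
The longest run that either window shared with the same window of Gstm2 or Ugt2a1 was 10 bases.

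Gsta1 levels were 1.09, 1.15, 0.79, 1.44 and 1.39 in SD and 1.25, 1.16, 1.72, 1.55 and 1.12 in HQ. They ran from 1.14 to 2.74 (median 1.96) in HFD, from 1.40 to 3.30 (median 1.70) in HR and from 1.28 to 2.61 (median 2.22) in HQR. SD and HQ livers thus lay in the lower part of the range, and both overlapped with the other groups, SD and HR only through the SD liver at 1.44 and the HR liver at 1.40. The difference of HFD from SD was 0.79 ± 0.30 (SE), with an adjusted p of 0.641 by limma.

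Gsta2 likewise had its lowest means in SD and HQ and its highest in HQR. Its levels were -0.12, -0.23, -0.54, -0.03 and -0.04 in SD and -0.06, -0.25, 0.25, 0.15 and -0.48 in HQ, and they ran from -0.07 to 1.38 (median 0.66) in HFD, from -0.25 to 1.78 (median 0.41) in HR and from -0.05 to 1.28 (median 0.88) in HQR. All SD and HQ livers were at or below 0.25, whereas 4 of the 6 HFD livers were above it. Gsta2 differed by 0.83 ± 0.30 (SE) in HFD against SD (adjusted p 0.576 by limma), by -0.71 ± 0.30 in HQ against HFD (adjusted p 1.00) and by 0.86 ± 0.30 in HQR against HQ (adjusted p 1.00). HQR differed from SD by 0.96 for Gsta1 and 0.98 for Gsta2, with adjusted p of 0.387 and 0.365 by limma. The probes of the 2 genes are alike over 27 of 28 aligned bases out of 60, and whether each reads the transcript of the other was not tested.

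Gsta3, a major liver alpha class enzyme, was 7.89 ± 0.25 (SD, n = 6) in HFD and 7.38 ± 0.23 (SD, n = 6) in HR. The difference of -0.51 ± 0.16 (SE) had the smallest adjusted p of the 39 genes in HR against HFD, 0.749 by limma. Gsta4, which conjugates 4-hydroxynonenal, lay between 0.45 and 0.83 in its 5 group means. All 4 Gsta genes had a negative difference in HQ against HFD, from -0.71 to -0.05. On both of the 2 slides that held these diets the difference of Gsta4 was positive (0.25 and 0.26), whereas those of the other Gsta genes were negative.

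Mu class enzymes conjugate electrophiles such as epoxides. Of the 7 mu class genes, Gstm2 had the smallest adjusted p of the 39 genes in every comparison of a supplemented group with SD. Its SD levels were 5.91, 5.87, 5.30, 5.37 and 5.54. HFD livers ran from 4.77 to 5.75 (median 5.11), HQ livers read 5.17, 4.39, 5.13, 5.39 and 4.81, HR livers ran from 4.16 to 4.97 (median 4.62) and HQR livers from 4.41 to 5.27 (median 4.88). All HR and HQR livers lay below all SD livers, whereas HFD and HQ livers overlapped with SD. The share of all genes without overlap was 0.603% in HR against SD and 0.817% in HQR against SD. Apart from these and Ugt2a1 in HFD against SD, no conjugation gene was without overlap in any pair of diets. The share of all genes without overlap was 0.557% in HQ against SD, 0.164% in HQ against HFD, 0.388% in HR against HFD and 0.0913% in HQR against HFD, and 0.11%, 0.137% and 0.0913% in HQ against HR, HQR against HQ and HQR against HR. It was 0.0411% for the 4 high fat groups against SD and 0.00457% for the supplemented groups against HFD.

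The Gstm2 difference from SD was -1.0 ± 0.21 (SE) in HR (0.50-fold, adjusted p 0.0676 by limma), -0.75 ± 0.21 in HQR (adjusted p 0.221), -0.62 ± 0.22 in HQ (adjusted p 0.869) and -0.44 ± 0.21 in HFD (adjusted p 0.791). The call in HR against SD turned on the model: the adjusted p was 0.110 with slide as a block, 0.0208 with slide as a random block, 0.0151 with array weights, and 0.0354 or 0.0439 when HQ liver 2 or HFD liver 4, neither of them in the comparison, was left out. Within the 3 slides that held both diets, the difference of HR from SD ran from -1.46 to -0.34. HR against HFD gave -0.56 (95% interval -0.97 to -0.16) and HQR against HR gave 0.25. Diet took a share of 0.55 of the Gstm2 variance, the highest of the 39 genes, and slide a share of 0.18.

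Among the other mu class genes, Gstm1 lay between 8.98 and 9.10 and Gstm3 between 8.32 and 8.55 in all 5 group means. Gstm4, Gstm5, Gstm6 and Gstm7 had differences of 0.08, -0.04, -0.37 and -0.42 in HFD against SD, of 0.22, -0.03, -0.47 and -0.46 in HR against SD and of 0.17, -0.29, -0.34 and -0.09 in HQR against SD, all with 95% intervals that crossed 0. In HR and HQR against SD, Gstm1 gave -0.05 and -0.11 and Gstm3 -0.04 and -0.09. Gstp1, the pi class enzyme, which is higher in male than in female mouse liver, was 9.50 ± 0.32 (SD, n = 5) in SD and 8.99 ± 0.37 (SD, n = 6) in HFD, a difference of -0.51 with a 95% interval from -1.05 to 0.03.

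**Figure D3:**
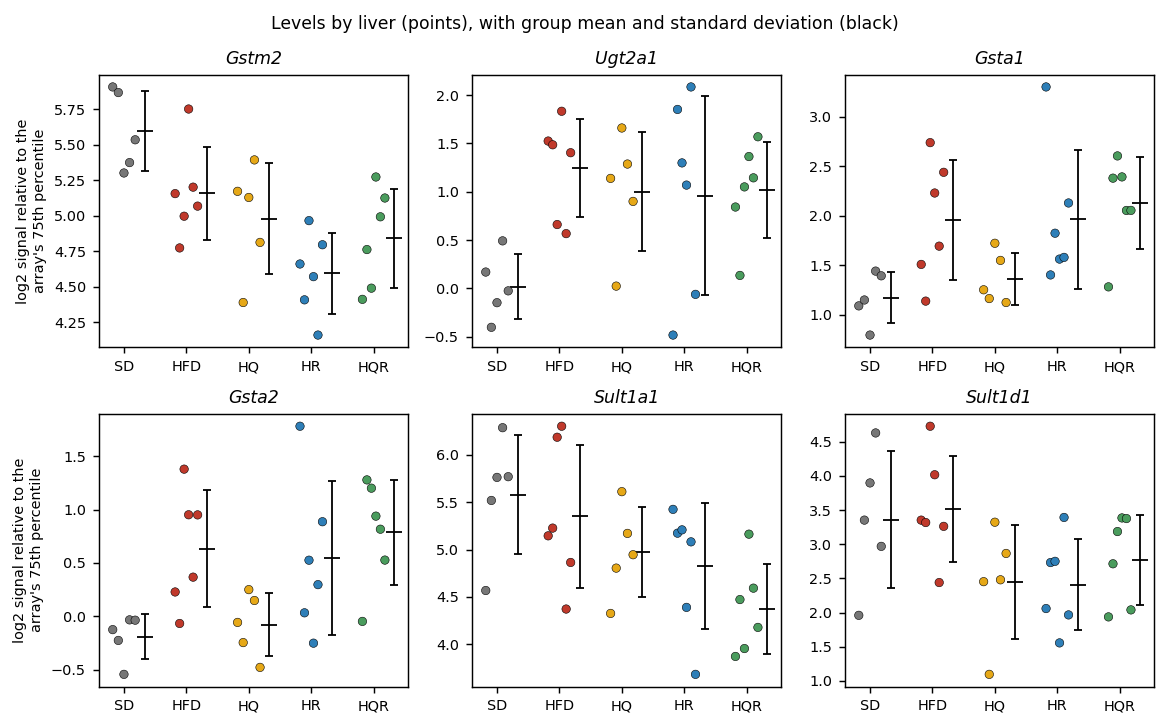
Levels of Gstm2, Ugt2a1, Gsta1, Gsta2, Sult1a1 and Sult1d1 in each liver (points, log2 relative to the array's 75th percentile) by diet, with the group mean and standard deviation in black. The lowest SD liver for Gstm2 is at 5.30, above the highest HR liver at 4.97, and for Ugt2a1 the highest SD liver is at 0.49, below the lowest HFD liver at 0.57.

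Theta class enzymes act on small halogenated compounds and organic peroxides. Gstt3 was 4.45 ± 0.64 (SD, n = 6) in HFD, with 1 liver at 5.69 and the others at or below 4.54, and 3.64 ± 0.46 (SD, n = 6) in HR. HR livers ran from 3.04 to 4.36 with a median of 3.72, so they overlapped with HFD livers, whose median was 4.19. The difference was -0.81 ± 0.31 (SE), with an adjusted p of 0.946 by limma. Gstt1 differed by 0.51 and Gstt2 by -0.17 in HFD against SD, and both 95% intervals crossed 0. Gstt4 was dim, with means of -4.01 ± 0.53 (SD, n = 6) in HFD and -3.62 ± 0.35 (SD, n = 6) in HR; HFD livers ran from -4.67 to -3.23 (median -4.10) and HR livers from -4.18 to -3.17 (median -3.60). Gstk1, the mitochondrial kappa class gene, differed by 0.00 between HFD and SD (95% interval -0.81 to 0.82), and Gstz1, which degrades maleylacetoacetate in tyrosine breakdown, by 0.03 (-0.31 to 0.36). Gstz1 was -0.33 in HR against HFD, with an interval from -0.65 to -0.01.

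Among the sulfotransferases, none of the 9 tested genes had a 95% interval that excluded 0 in HFD against SD, and the median difference was 0.02. Sult1a1, the main phenol sulfotransferase and one that accepts both supplements, read 4.57, 5.52, 5.76, 6.28 and 5.77 in SD. It ran from 4.37 to 6.30 (median 5.19) in HFD and from 3.87 to 5.16 (median 4.33) in HQR. Of the 6 HQR livers, 4 lay below every SD liver, and the HFD and HQR groups overlapped. HQR differed from HFD by -0.98 ± 0.34 (SE; adjusted p 0.987 by limma) and from SD by -1.21 ± 0.36 (adjusted p 0.327). HQ and HR lay between, at -0.38 and -0.52 against HFD, and on the 4 slides with both diets HQR against HFD ran from -2.23 to 0.79.

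Sult1d1, which sulfates catecholamines and other small phenols, was the largest negative difference in HQ and in HR against HFD. HFD livers ran from 2.44 to 4.73 with a median of 3.34, and HR livers from 1.56 to 3.39 with a median of 2.40. HQ livers read 2.45, 1.1, 3.32, 2.48 and 2.87, and HQR livers ran from 1.94 to 3.39 with a median of 2.95. Each supplemented group overlapped with HFD, and SD livers (1.96, 3.35, 3.90, 4.63 and 2.97) spanned most of the range of the others. Compared with HFD livers, HQ differed by -1.08 ± 0.45 (SE), HR by -1.11 ± 0.43 and HQR by -0.75 ± 0.43, with adjusted p of 1.00, 0.946 and 0.987 by limma. Over the 3 supplemented groups, in a contrast chosen after seeing the data, the difference was -0.98 with an adjusted p of 0.997 by limma. That contrast called 0 of 39 conjugation genes, beside 0.00457% of all genes, and 6 of 39 had an unadjusted p under 0.05, beside 3.42%. All comparisons with HFD share its 6 livers, as all comparisons with SD share its 5.

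Sult1b1, a thyroid hormone and phenol sulfotransferase, was 1.15 ± 0.64 (SD, n = 6) in HFD and 0.36 ± 0.52 (SD, n = 6) in HR, a difference of -0.79 ± 0.31 (SE), and its second probe gave -1.09. Sult1e1, the estrogen sulfotransferase, differed from SD by -0.71 in HFD, -1.37 in HR and -1.27 in HQR (adjusted p 0.959, 0.640 and 0.685 by limma). It was well above background on 23 arrays, with 4 of 6 livers in each of HR and HQR. SD livers ran from -3.64 to -0.33 with a median of -2.43. Over the alternatives the difference from SD ran from -1.76 to -0.40 in HR and from -1.68 to -0.58 in HQR. Sult5a1 read 2.79, 2.80, 2.80, 2.20 and 2.87 in HQ and ran from 1.32 to 3.15 (median 2.08) in HFD and from 2.22 to 2.88 (median 2.51) in HQR. Its differences from HFD were 0.55 in HQ and 0.39 in HQR, with intervals that crossed 0. Sult1c1, Sult1c2, Sult2b1 and Sult4a1 differed by 0.02 to 0.29 between HFD and SD. Sult3a1 was well above background only in HR liver 4 and HQR liver 4, at -2.98 and -2.91.

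Against HFD, the supplemented diets gave limma calls for 0 of 39 genes each, beside 0% of all genes in HQ, 0.00913% in HR and 0% in HQR. At an unadjusted p under 0.05 there were 3 genes in HQ (2.13% of all genes), 8 in HR (4.9%) and 1 in HQR (1.36%). Of the 8 in HR, only Ugt2b38 was higher (0.37), and Gsta3, Gstm2, Gstt3, Gstz1, Sult1b1, Sult1d1 and Ugt1a6b were lower. Median differences of the 39 genes were -0.18 in HQ, -0.10 in HR and -0.05 in HQR, beside -0.00, 0.01 and 0.05 for all genes. The sulfotransferases had the lowest class median in HR (-0.52, with 7 of 9 below 0) and in HQR (-0.40), and the glucuronosyltransferases in HQ (-0.21). Beside the genes described above, Ugt2a3 was among the lowest in HQ (-0.64) and Gstt1 in HQR (-0.68), and Gstt4 in HQ (0.31) and Gstm7 in HQR (0.33) were among the highest, with intervals that crossed 0. A second Gstt4 probe differed from HFD by -0.21 (HQ), 0.20 (HR) and -0.02 (HQR), so the sign of Gstt4 in HQ and HQR depended on the probe.

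**Figure D4:**
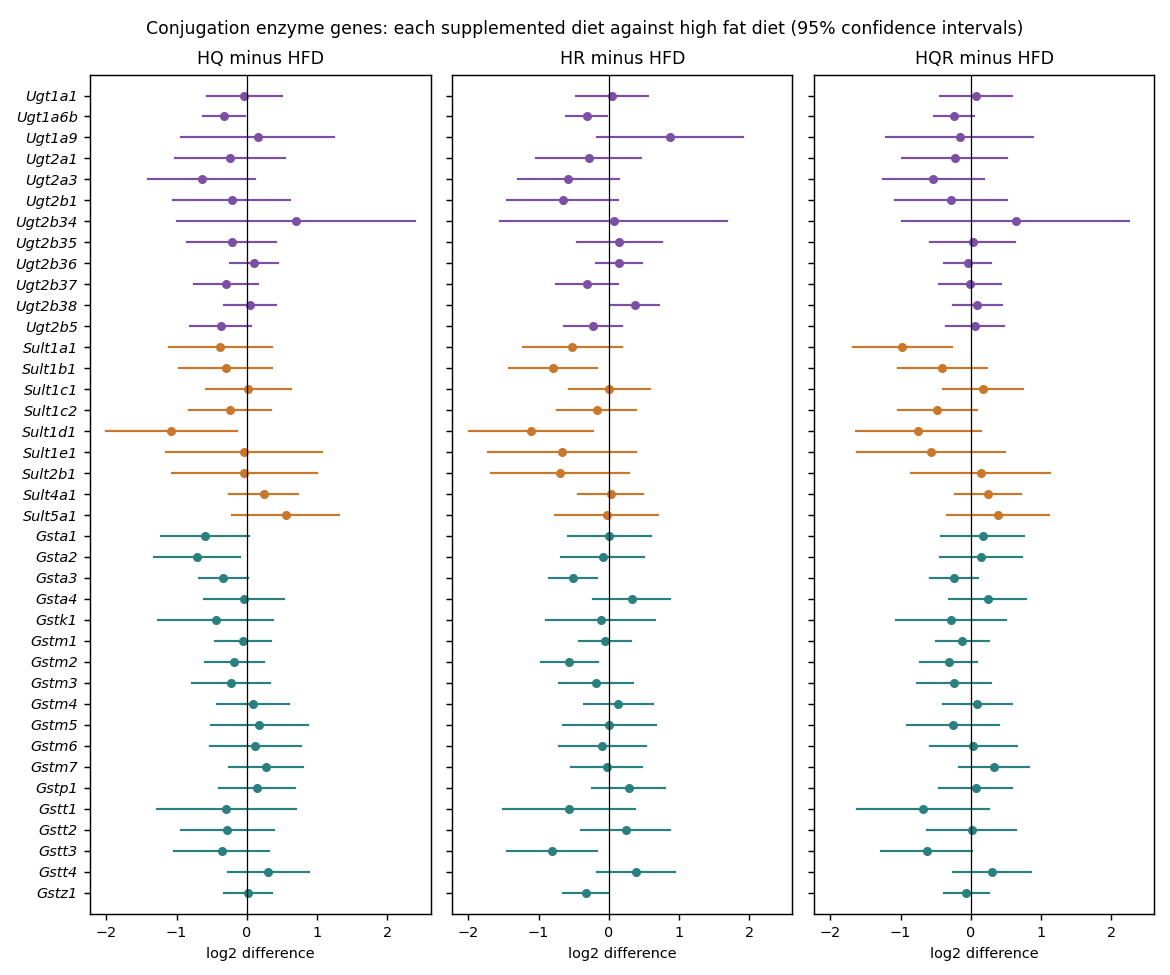
Differences of the quercetin (HQ), resveratrol (HR) and combined (HQR) diets from the high fat diet for the 39 genes, in log2 units (points) with 95% confidence intervals (lines), coloured by enzyme class as violet for glucuronosyltransferases, orange for sulfotransferases and green for glutathione transferases. Sult1d1 lies at -1.08, -1.11 and -0.75, Sult1a1 at -0.38, -0.52 and -0.98, and none of the genes passed the adjusted threshold.

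Cell type markers differed alongside these values. In HR against HFD all 6 Kupffer cell markers and all 7 sinusoidal endothelium markers had positive differences (medians 0.57 and 0.53), and 7 of 8 pericentral hepatocyte markers had negative ones (median -0.45), with none called. Of the 9 female-biased liver genes, Hao2 (Hao3 on the array) was called at -2.75. The summed level of the Kupffer list ran from 3.01 to 4.12 in HFD and from 4.03 to 5.30 in HR, that of the endothelial list from 4.44 to 5.87 and from 5.67 to 6.35, and that of the pericentral list from 7.46 to 8.54 and from 7.28 to 8.02. In HQR against HFD all 8 pericentral markers had negative differences, with summed levels of 7.30 to 8.08 in HQR. Against SD, where Gstm2 lay lowest in HR and HQR, all 8 pericentral markers had negative differences in both (medians -0.81 and -0.83), from summed levels of 7.82 to 8.68 in SD, and all 7 endothelial markers had positive ones in HR (median 0.39) and 4 of 7 in HQR (median 0.21), from 5.06 to 6.09 in SD and 5.34 to 6.11 in HQR. Kupffer cell markers were above 0 in 5 of 6 in HR and 2 of 6 in HQR against SD, from 3.85 to 5.33 in SD and 3.67 to 4.82 in HQR, and no gene of these 3 lists was called. Of the 7 hepatocyte markers, 2 had positive differences in the 3 supplemented groups against HFD (median -0.30). None had one in the 4 high fat groups against SD (median -0.42). Mean summed levels of the periportal list were 8.55 in SD, 8.32 in HFD, 8.23 in HR and 8.33 in HQR. Negative differences were thus not particular to the pericentral list. Every marker counted was well above background on at least 5 arrays, as Lep (adipocyte) and A1bg (female-biased) were not. The part of the cell type markers in the differences of the conjugation genes was not tested.

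Between the supplements, limma called 0 of 39 genes in HQ against HR, HQR against HQ and HQR against HR, beside 0% of all genes in each. At an unadjusted p under 0.05 there were 2, 3 and 0 of the 39, beside 1.29%, 1.42% and 2.77% of all genes. HQ and HR were fed the same 0.4% of the diet: Gsta1 differed by -0.61 (95% interval -1.23 to 0.02), Gsta2 by -0.62 (-1.24 to -0.01) and Gstz1 by 0.34 in HQ against HR. The largest positive differences in HQ against HR were those of Sult2b1 (0.66), Ugt2b34 (0.63) and Sult1e1 (0.62), and the largest negative one that of Ugt1a9 (-0.72; 0.19 with normexp), all with intervals that crossed 0. HQR held 0.2% of each compound and so matched neither dose. HQR against HQ gave 0.77 for Gsta1, 0.86 for Gsta2 and 0.44 for Ugt2b5 at the upper end, and -0.60 for Sult1a1, -0.52 for Sult1e1 and -0.44 for Gstm5 at the lower. HQR against HR gave 0.84 for Sult2b1, 0.57 for Ugt2b34 and 0.42 for Sult5a1, and -1.03 for Ugt1a9, -0.45 for Sult1a1 and -0.30 for Sult1c2. Of these, Sult2b1 turned to -0.0039 with normexp, and Ugt2b34 turned to -0.32 with slide as a block and was below 0 on 2 of the 3 slides with both diets. The order of HQ, HR and HQR was therefore not the same from gene to gene, and Sult2b1 and Ugt1a9 were dim. Against SD, the counts were 0 of 39 in HQ (0.0365% of all genes), HR (0.0594%) and HQR (0.0731%), with 3, 10 and 7 genes at an unadjusted p under 0.05, beside 3.91%, 5.73% and 6.45% of all genes. In HQ against SD, Ugt2b35 (0.33) and Ugt2b1 (0.27) followed Ugt2a1 at the upper end, and Ugt1a9 (-1.25, but 0.19 with normexp), Sult1d1 (-0.92) and Sult1e1 (-0.75) lay at the lower. Sult1d1 was -0.95 in HR against SD. The F-test called 0 of 39, beside 0.105% of all genes, with 7 at an unadjusted p under 0.05, beside 3.96%, and its smallest p was that of Gstm2, 0.000802, with an adjusted p of 0.308.

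Some pairs of genes varied together from liver to liver. After each group's mean had been removed, Pearson's r over the 28 livers was computed for all 741 pairs, with a permutation p from 100000 permutations adjusted over the pairs and 1e-05 as the smallest p they can give. The highest was that of Gsta1 and Gsta2, whose probes are partly alike, with r = 0.96 and Spearman's rho = 0.93 (adjusted permutation p of 0.000265 and 0.000371), r = 0.93 without the 2 livers farthest from the median, and r = 0.96 after slide means had also been removed. Ugt2a3 and Ugt2b1, both in the Ugt2 cluster on chromosome 5, had r = 0.91 and rho = 0.88 with the same adjusted permutation p, and 0.87 and 0.80 in those 2 checks. Sult1b1 and Gstt3, on chromosomes 5 and 10, had r = 0.81 and rho = 0.84, and 0.79 and 0.81 in the checks. The most negative pair was Gstt1 and Ugt2b34, with r = -0.90 and rho = -0.90, r = -0.88 without the 2 farthest livers and -0.74 after slide. For Gstk1 and Gstt1 r was 0.77 but 0.24 once slide was removed. Of the 741 pairs, 178 had an adjusted permutation p under 0.05, and r was positive in 116 of these. The share among pairs of other genes was not computed. The permutations treat livers of a slide as independent, and at most 4 arrays per slide were too few for an r within each slide.

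**Figure D5:**
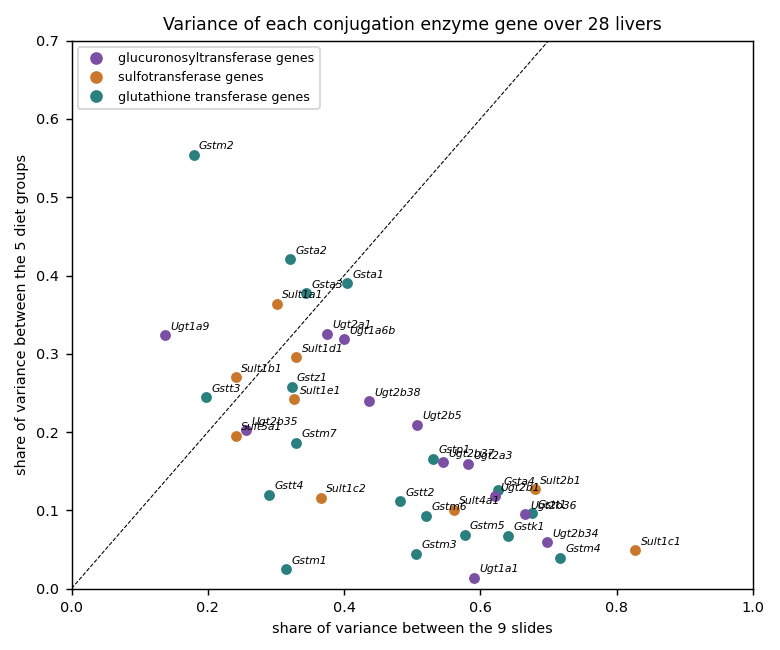
Share of each gene's variance over the 28 livers that lay between the 9 slides (horizontal axis) and between the 5 diets (vertical axis), for the 39 genes, with a dashed line of equal shares. Points right of the line, 32 of 39, have the larger share between slides, as have 20532 of all 21899 genes tested. Gstm2 stands highest, at 0.55 between diets and 0.18 between slides.

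Slide took a median share of 0.44 of the variance of the 39 genes and diet 0.16, beside 0.51 and 0.10 over all genes tested. Both shares hold part of the chance variation between livers, and the slide share holds more of it, as there were 9 slides and 5 diets. By position, the 7 Gstm genes lie on chromosome 3, and 9 Ugt2 genes with Sult1b1, Sult1d1 and Sult1e1 lie on chromosome 5.

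Of the 40 genes, 36 had a promoter in the RefSeq table, in 45 windows of 250 bases before to 50 after a start site. The antioxidant response element core TGACNNNGC, searched on both strands, was in 3 of these windows (Gsta3, Gstm5 and Gstm7), or 6.67%, beside 12.4% of all windows. The xenobiotic response element core GCGTG was in 22.2% of them, Gsta1 and Gsta2 included, beside 32.4% of all, and the half-site AGTTCA in 13.3% beside 13.99%. A 12-base HNF1 site was in none, and in 0.0609% of all windows. The first motif can share its last bases with the second, and a match is a description of letters only.

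The genes that supply, complement and regulate conjugation were listed by role. None of them was called in HFD against SD or in a supplemented diet against HFD: 0 of 15 genes of sugar, sulfate and glutathione supply, 0 of 28 other transferases, 0 of 6 deconjugation genes, 0 of 5 export genes, 0 of 12 receptors and regulators and 0 of 9 readout genes. Their median differences in HFD against SD, in that order, were -0.04, 0.13, 0.21, -0.05, -0.13 and 0.15, beside -0.04 for all genes. The largest positive differences in HFD against SD were those of Chac1, which degrades glutathione, at 1.65 ± 0.46 (SE; adjusted p 0.285 by limma), and the microsomal Mgst3, at 1.04 ± 0.26 (adjusted p 0.172), and the largest negative ones those of the methyltransferases Nnmt, at -1.14 ± 0.59 (adjusted p 0.848), and As3mt, at -1.09 ± 0.35 (adjusted p 0.495). The thiopurine methyltransferase Tpmt was -0.85 ± 0.22 in HR against HFD (adjusted p 0.519). Cyp2b10, the usual readout of CAR, was 0.99 in HFD against SD, and against HFD it was -2.22 with quercetin, -1.35 with resveratrol and -1.71 with both, with no adjusted p under 0.05. Ugdh, which makes UDP-glucuronic acid, differed by 0.41 in HFD against SD and by -0.41 in HQ against HFD, and Papss2, which makes PAPS, by -0.47 and -0.04. The AhR gene Ahr differed from HFD by -0.61 with quercetin, -0.65 with resveratrol and -0.59 with the combination. The count of positive differences among the 28 other transferases was 7 for each supplemented diet against HFD, counted diet by diet and not necessarily of the same genes.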

How the data were processed

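Agilent 1-colour arrays of 28 livers were used. Each scanner file was made by the authors with Feature Extraction 10.5.1.1, per the file headers, and holds an intensity per spot, background subtracted. Outlier spots were left out, spots of a probe averaged, and the log2 of the deposited intensity taken minus the array's 75th percentile over non-control probes. The authors' deposited value table holds a score whose scale is not stated in the sources used here (column medians -0.169 to -0.0992); it was used as an alternative only. A gene was tested where its probe was well above background on at least 5 arrays. Limma 3.58.1 in R 4.3.3 fitted the 5 groups in 1 model. Groups came from the labels, and p-values rest on the spread between livers of a group. With 1 array per liver and no slide term in the main model, this spread includes that between arrays and slides. The sample titles give no pairing of livers. Deviations of livers with the same replicate number correlated positively in every pair only in HFD against SD (0.218 to 0.698 over 5 pairs). Single pairs reached nearly as much elsewhere, up to 0.696 in HQR against SD, and the part of slide and scan day in this was not tested. The number of arrays limits the precision.

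Members and gene lists were chosen with earlier results of these data known. Genes named with values were those called, the 3 highest and 3 lowest differences of each comparison and a set known from mouse liver. Of that set, Ugt1a2, Ugt1a6a, Sult2a1, Sult2a2 and Gstp2 were not analysed here. Alternatives covered background correction, scaling, filters, probe choice, slide and scan day, variance models, the deposited table and leaving out arrays. The code was tested on simulated data. Of the marker lists, no periportal, stellate, erythrocyte, pancreas or male-biased gene was called in the 4 comparisons with HFD.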

Additional observations from a re-analysis of the deposited data

Results flagged for a closer look

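Of 195 groups of livers (39 genes in 5 diets), 11 had 1 liver that stood apart from the others by Dixon's test, and chance alone gives about 1 in 20. Among the glucuronosyltransferases these were Ugt2a3 in HQ liver 2 (1.78), Ugt2b1 in HQ liver 2 (0.83), Ugt2b34 in HQR liver 1 (5.89), Ugt2b36 in HR liver 4 (6.01) and in HQR liver 3 (6.25), and Ugt2b38 in SD liver 2 (2.81). Among the sulfotransferases they were Sult1c2 in HQR liver 2 (-0.49), Sult2b1 in HR liver 6 (-3.35) and Sult5a1 in HQ liver 4 (2.20). Among the glutathione transferases they were Gstm6 in HFD liver 1 (-2.12) and Gstt3 in HFD liver 4 (5.69).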

How the results depend on the processing

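The count of called genes stayed at 0 in 9 of the 10 pairwise comparisons, in the F-test and in the 3 supplemented groups against HFD, under every alternative that could be run. In HR against SD it was 1 (Gstm2) with an intensity trend and robust estimation (adjusted p 0.0427), with array weights (0.0151) and with slide as a random block (0.0208), and it ranged from 0 to 1 when each liver was left out, with 1 without HFD liver 4 (0.0439) or HQ liver 2 (0.0354). In the 4 high fat groups against SD it was 2 with array weights (Gstm2 0.0273, Ugt2a1 0.0421), 2 with slide as a random block (0.0234 and 0.0191) and 1 with slide as a block (Ugt2a1 0.0227). The cause of these changes was not tested. The fit with the replicate number as a block gave a count of 0 in each comparison and changed no call. With normexp, the median difference of all genes lay between -0.17 and 0.25 over the comparisons. Under it, Ugt1a9 became 0.19 in HQ against HR and 0.19 in HQ against SD, and Sult2b1 -0.0039 in HQR against HR. Ugt2b34 in HQR against HR became -0.32 with slide as a block and ranged from -0.0055 to 0.87 when each liver was left out. Dim probes (Ugt1a9, Sult1e1, Sult2b1, Sult3a1, Gstt4) limit what can be said of those genes.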
